A study of Homo sapiens with 9 samples.

Results

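Chemokines that call T cells and chemokines that call neutrophils were followed in TE13 cells, an established line of esophageal squamous cell carcinoma (ESCC). The genes were 5 interferon-driven chemokines (CXCL9, CXCL10, CXCL11, CXCL16 and CCL5) and 5 NF-kB-driven chemokines (CXCL1, CXCL2, CXCL3, CXCL8 and CCL20), each found by its symbol in a single row of the deposited table of 60605 genes. All 10 had a mean of at least 0.1 FPKM (counts scaled for exonic length and library total) over the 9 libraries and were among the 21395 genes tested. CXCL9, at 0.113 FPKM on average, passed only through its siRNA libraries, since its control mean was 0.0433 FPKM.

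The 3 groups were cells transfected with control siRNA, cells transfected with PARylator siRNA.1 and cells transfected with PARylator siRNA.2, with 3 libraries each. PARylator is the name given to the long noncoding RNA LINC00885, and the comparisons ask what its knockdown does to the cells' transcripts. All groups come from 1 cell line, and no untransfected cells were among the samples used here. The series' design text calls the libraries biological replicates without saying whether they came from separate cultures, so the tests measure the spread between these libraries.

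Chemokines are small secreted proteins that direct the movement of leukocytes through G protein-coupled receptors. CXCL9, CXCL10 and CXCL11 bind CXCR3 on activated T cells and natural killer cells, and their genes are textbook targets of interferon through transcription factors that bind elements called GAS and ISRE. CXCL1, CXCL2, CXCL3 and CXCL8 bind CXCR2, the main chemokine receptor of neutrophils (CXCL8 also binds CXCR1), and their genes are classic targets of NF-kB in epithelial cells and macrophages. CXCL16 is made as a membrane protein that can be shed and binds CXCR6, CCL5 binds CCR1 and other receptors, and CCL20 binds CCR6. The division is not absolute, because NF-kB also acts at CXCL10, CXCL11 and CCL5.

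Short promoter stretches are shown first, because the elements named above are what the division into interferon-driven and NF-kB-driven genes refers to. RefSeq promoter windows (GRCh38.p14, 250 bases before to 50 bases after the start site) were at hand for 8 of the 10 genes, all but CXCL16 and CCL5. Both strands were searched for the ISRE core GAAANNGAAA, the GAS core TTCNNNGAA and the NF-kB consensus, and matches are in capitals. Each sequence is written 5′ to 3′ on the strand of its gene.
CXCL9 (chr4:76007659-76007692, minus strand): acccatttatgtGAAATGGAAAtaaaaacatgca
CXCL10 (chr4:76023598-76023730, minus strand): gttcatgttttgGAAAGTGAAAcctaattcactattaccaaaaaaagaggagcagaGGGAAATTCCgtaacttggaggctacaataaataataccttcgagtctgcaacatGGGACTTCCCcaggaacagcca
CXCL11 (chr4:76036125-76036158, minus strand): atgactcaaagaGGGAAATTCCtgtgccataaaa
CXCL1 (chr4:73869302-73869336, plus strand): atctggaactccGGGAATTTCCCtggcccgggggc
CXCL2 (chr4:74099251-74099285, minus strand): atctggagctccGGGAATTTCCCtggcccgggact
CXCL3 (chr4:74038746-74038780, minus strand): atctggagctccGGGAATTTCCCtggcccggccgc
CXCL8 (chr4:73740466-73740498, plus strand): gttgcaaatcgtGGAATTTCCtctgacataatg
CCL20 (chr2:227813751-227813784, plus strand): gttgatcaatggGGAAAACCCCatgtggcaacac

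The ISRE core was matched in the windows of CXCL9 and CXCL10, and in 3.57% of all 35116 windows. The CXCL10 window held an ISRE match at bases -221 to -212 from the start site and NF-kB matches at -177 to -168 and -122 to -113. The CXCL11 window held an NF-kB match at -76 to -67, with the same 10 bases as the upstream match of CXCL10, and GAS matches at -240 to -232 and 19 to 27. GAS was matched in 7.66% and the NF-kB consensus in 5.91% of all windows, and 6 of the 8 chemokine windows held the latter. A match describes letters in a window and does not show that a factor was bound.

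CXCL1, CXCL2 and CXCL3 carried the same 11 letters within 1 base of the same distance from their start sites, read as overlapping NF-kB matches on both strands. In an ungapped alignment, the CXCL1 and CXCL3 windows were identical at 68.7% of bases, CXCL1 and CXCL2 at 51.7%, and CXCL2 and CXCL3 at 48.3%, whereas all other pairs of windows lay between 25.5% and 33.4%. CXCL8 had no match to the consensus as written. Its capitals mark GGAATTTCC, the longest run shared by the windows of CXCL1, CXCL2, CXCL3 and CXCL8, found by a search added after the values were seen. That run was present, on either strand, in 0.461% of all windows. The CCL20 match was on the opposite strand of its window. The windows of CXCL11 and CCL20 begin at RefSeq start sites 5345 and 8103 bases from the start of the deposited gene, so their windows describe a start inside it.

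Libraries held between 15337917 and 22559998 counts on genes, with the deepest 3 all from siRNA.2. Mitochondrial genes took 7.46% to 7.66% of counts in the control libraries, 4.99% to 5.06% for siRNA.1 and 5.54% to 5.56% with siRNA.2. LINC00885 itself was counted 6, 7 and 12 times in the control libraries, 4, 5 and 2 times with siRNA.1, and 2, 0 and 4 times with siRNA.2. The log2 difference from control was -1.21 ± 0.95 (SE, n = 3 against 3) for siRNA.1 (edgeR adjusted p = 0.376) and -2.33 ± 1.01 for siRNA.2 (edgeR adjusted p = 0.0659), so these libraries did not show its knockdown past the threshold. All 8 squamous epithelial markers were present in every library, of which 2 rose and 5 fell with each siRNA. Of all tested genes, 30.3% were called in either direction with siRNA.1 and 30.9% with siRNA.2. KRT5 was at 142, 39.97 and 55.8 FPKM on average in the control, siRNA.1 and siRNA.2 groups, whereas KRT6A rose by 0.34 ± 0.04 and 0.58 ± 0.04 and EPCAM by 0.44 ± 0.04 and 0.45 ± 0.04. SFN was at -0.79 ± 0.04 and -0.75 ± 0.04 and CDH1 at -0.15 ± 0.04 and -0.53 ± 0.04. KRT17 and TP63 were also lower with both siRNAs. Of 5 neutrophil markers, CSF3R, FCGR3B and MPO had at most 3 counts in every library, and S100A8 and S100A9, which squamous cells also make, fell with both siRNAs. Of 10 blood cell markers, CD2, CD3E and the B cell gene MS4A1 had at most 1 count in any library, while PTPRC, LYZ, FCER1G and CSF1R were higher with both siRNAs and LAPTM5 was lower. PTPRC, with a control mean of 0.0333 FPKM, passed the filter of 0.1 FPKM only through its siRNA libraries, so its call is no independent support. The summed level of the 10 blood cell markers was 5.54 to 6.63 FPKM in the control libraries, 7.89 to 8.81 for siRNA.1 and 7.41 to 8.73 with siRNA.2. LAPTM5 made up most of this sum in the control libraries. It fell from a mean of 4.95 FPKM to 3.00 and 2.40, so the sum hides larger rises of other genes. LYZ rose by 3.08 ± 0.30 and 3.24 ± 0.30 on the log2 scale, and FCER1G by 2.41 ± 0.61 and 2.89 ± 0.58. CSF1R rose by 0.85 ± 0.24 and 0.63 ± 0.24. The part of these genes in the chemokine results was not tested. In bulk RNA, a change in the number of cells that express a gene and a change in RNA per cell cannot be told apart.

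With PARylator siRNAs, CXCL10, CXCL11, CXCL1, CXCL2, CXCL3 and CXCL8 rose, and of these CXCL10 rose most with each siRNA. With siRNA.2, CXCL2 (log2 fold change 1.83) rose about as far as CXCL11 (1.85). CCL5 fell slightly with both siRNAs, CXCL16 fell slightly with siRNA.2, and CXCL9 and CCL20 did not pass the test. Among the interferon-driven chemokines, 2 rose, 1 fell and 2 did not pass the test with siRNA.1, against a background of 30.3% of all tested genes called in either direction (15% higher, 15.2% lower). With siRNA.2, 2 rose, 2 fell and 1 did not pass, against 30.9% called (15.8% higher, 15.1% lower). Among the NF-kB-driven chemokines, 4 rose and 1 did not pass with each siRNA. The median log2 fold change was 1.52 and 0.98 for the interferon-driven and 0.61 and 1.18 for the NF-kB-driven chemokines with siRNA.1 and siRNA.2, beside medians of -0.000565 and 0.00401 over all tested genes. The interferon-driven median with siRNA.2 is the value of CXCL9 itself, which rests on few counts and did not pass the test. With siRNA.1 that median is the value of CXCL11, with CXCL9 above it at 2.07. CXCL9 passed the filter only through its siRNA libraries, so nothing is read from either interferon-driven median. Both comparisons use the same 3 control libraries, so they are not independent of each other.

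CXCL10, which was the least abundant of the CXCR3 ligands after CXCL9 in the control cells, changed most. Its level was 9.32, 8.30 and 5.56 FPKM in the control libraries, 80.01, 89.07 and 86.96 FPKM with siRNA.1, and 113.44, 94.53 and 102.84 FPKM with siRNA.2. Every siRNA.2 library was above every siRNA.1 library, which in turn was far above every control library. The corresponding counts were 168, 152 and 117, then 1670, 1609 and 1784, then 2639, 2134 and 2726. CXCL10 rose by a log2 fold change of 3.45 ± 0.08 (10.9-fold) with siRNA.1 and 3.75 ± 0.08 (13.4-fold) with siRNA.2, both with an edgeR adjusted p too small to be stored as other than 0. The standard error depended on the method. For each siRNA it was 0.17 with DESeq2 and 0.16 with limma on log2(FPKM + 0.1). Ordered by log2 fold change from the top, it stood at place 223 with siRNA.1 and place 132 with siRNA.2 of the 21395 tested genes.

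CXCL11, the neighbour of CXCL10 on chromosome 4 and the CXCR3 ligand of highest affinity, started higher and rose less. Its level was 18.19, 17.87 and 15.25 FPKM in the control libraries, 47.76, 50.07 and 51.29 FPKM with siRNA.1, and 62.48, 63.30 and 59.73 FPKM with siRNA.2. The 3 groups did not overlap. CXCL11 rose by 1.52 ± 0.07 on the log2 scale with siRNA.1 (edgeR adjusted p = 4.88e-112) and 1.85 ± 0.07 with siRNA.2 (edgeR adjusted p = 5.09e-172). Consequently the order of both ligands turned over. CXCL10 was at 0.365 to 0.512 times the FPKM of CXCL11 in the control libraries, at 1.68 to 1.78 times in the siRNA.1 libraries, and at 1.49 to 1.82 times in the siRNA.2 libraries.

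CXCL9, the ligand of this trio best known for its response to interferon gamma, was close to the limit of detection. It was counted 1, 4 and 1 times in the control libraries, 13, 8 and 7 times with siRNA.1, and 3, 12 and 0 times with siRNA.2. All siRNA.1 libraries lay above all control libraries, whereas the siRNA.2 libraries covered the whole control range. The log2 fold change was 2.07 ± 0.96 with siRNA.1 (95% confidence interval 0.19 to 3.95, edgeR adjusted p = 0.0911) and 0.98 ± 1.01 with siRNA.2 (-0.998 to 2.95, edgeR adjusted p = 0.530). A change of this gene was therefore not detectable at this depth, and intervals of this width also leave room for sizeable changes. The siRNA.2 value turned to -0.74 without replicate 2 of that group.

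CXCL16, the transmembrane ligand of CXCR6, differed in that it was abundant in every library. Its level was 60.88, 61.79 and 58.65 FPKM in the control libraries, 59.97, 60.29 and 60.23 FPKM with siRNA.1, and 54.52, 54.15 and 51.26 FPKM with siRNA.2. Control and siRNA.1 libraries overlapped, and all siRNA.2 libraries were below both. The log2 fold change was -0.03 ± 0.05 with siRNA.1 (95% confidence interval -0.13 to 0.06, edgeR adjusted p = 0.680) and -0.19 ± 0.05 with siRNA.2 (edgeR adjusted p = 0.000512). Genes on the opposite strand overlap both ends of CXCL16, namely ZMYND15 with 62 to 107 counts and MED11 with 139 to 231 counts per library, against 2589 to 3230 for CXCL16.

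CCL5, which draws T cells, monocytes and eosinophils, was also already abundant in the control cells. Its level was 55.46, 53.92 and 46.44 FPKM in the control libraries, 39.92, 43.22 and 46.31 FPKM with siRNA.1, and 49.50, 45.17 and 41.43 FPKM with siRNA.2. The siRNA.1 libraries lay just below all control libraries, and the siRNA.2 libraries overlapped them. CCL5 fell by 0.29 ± 0.06 on the log2 scale with siRNA.1 (edgeR adjusted p = 2.77e-05) and by 0.21 ± 0.06 with siRNA.2 (edgeR adjusted p = 0.00412). The siRNA.2 call was lost without control replicate 1 (-0.16, edgeR adjusted p = 0.0768) or without siRNA.2 replicate 3 (-0.15, edgeR adjusted p = 0.114). Both calls were lost with limma on log2(FPKM + 0.1), at -0.27 (limma adjusted p = 0.0538) and -0.19 (limma adjusted p = 0.145). Of the 50-base windows in annotated CCL5 transcripts, 15.6% also occurred in transcripts of other genes, so some of its reads may have been hard to place.

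**Figure D1:**
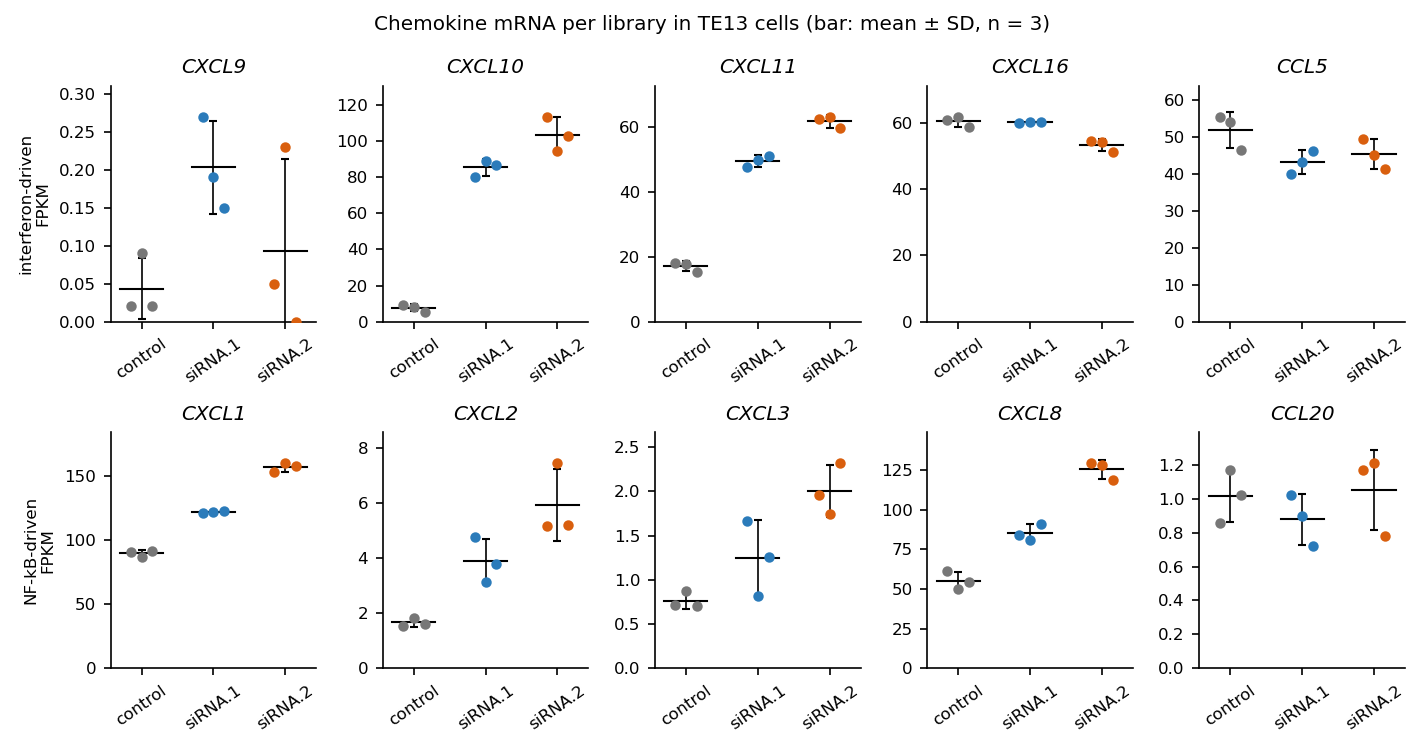
FPKM of each chemokine in each of the 9 libraries, on linear axes that start at 0 and differ between panels, with the interferon-driven genes above and the NF-kB-driven genes below. Points are libraries, and bars are the mean ± SD of 3 libraries. CXCL10, CXCL11, CXCL1, CXCL2 and CXCL8 form 3 separate steps from control to siRNA.1 to siRNA.2. All 3 groups overlap for CCL20, and for CCL5 the siRNA.2 libraries overlap both other groups.

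Of the neutrophil chemokines, CXCL1 was the most abundant of all 10 genes in the control cells. Its level was 90.95, 86.62 and 91.76 FPKM in the control libraries, 121.15, 121.78 and 122.58 FPKM with siRNA.1, and 153.01, 159.89 and 157.91 FPKM with siRNA.2. The groups were separate and the libraries of each were close together. CXCL1 rose by 0.41 ± 0.05 on the log2 scale with siRNA.1 (1.33-fold, edgeR adjusted p = 2.99e-15) and 0.79 ± 0.05 with siRNA.2 (1.73-fold, edgeR adjusted p = 9.13e-57).

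CXCL8, or interleukin-8, which binds both CXCR1 and CXCR2, rose further than CXCL1. Its level was 61.12, 49.83 and 54.32 FPKM in the control libraries, 84.41, 81.22 and 91.40 FPKM with siRNA.1, and 129.49, 128.46 and 118.78 FPKM with siRNA.2. Again no groups overlapped. CXCL8 rose by 0.61 ± 0.05 on the log2 scale with siRNA.1 (1.53-fold, edgeR adjusted p = 7.81e-35) and 1.18 ± 0.05 with siRNA.2 (2.26-fold, edgeR adjusted p = 6.84e-132). The FPKM of CXCL8 was 0.575 to 0.672 times that of CXCL1 in the control libraries, 0.667 to 0.746 times with siRNA.1, and 0.752 to 0.846 times with siRNA.2.

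CXCL2 and CXCL3, close relatives of CXCL1, were expressed at a far lower level. CXCL2 was at 1.54, 1.84 and 1.60 FPKM in the control libraries, 4.75, 3.12 and 3.77 FPKM with siRNA.1, and 5.17, 7.45 and 5.20 FPKM with siRNA.2. These 3 groups did not overlap, and the log2 fold change of CXCL2 was 1.20 ± 0.21 with siRNA.1 (edgeR adjusted p = 1.87e-07) and 1.83 ± 0.20 with siRNA.2 (edgeR adjusted p = 7.92e-18). CXCL3 was at 0.71, 0.87 and 0.70 FPKM in the control libraries, 1.67, 0.82 and 1.26 FPKM with siRNA.1, and 1.96, 1.74 and 2.32 FPKM with siRNA.2. The second siRNA.1 library, with 28 counts, lay within the control range of 24 to 30 counts, and the siRNA.2 libraries, with 74 to 116 counts, lay above it.

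The log2 fold change of CXCL3 was 0.71 ± 0.28 with siRNA.1 (edgeR adjusted p = 0.0363) and 1.39 ± 0.26 with siRNA.2 (edgeR adjusted p = 9.54e-07). The siRNA.1 call was lost without control replicate 1 (edgeR adjusted p = 0.0914), control replicate 3 (edgeR adjusted p = 0.103), siRNA.1 replicate 1 (0.44, edgeR adjusted p = 0.339) or siRNA.1 replicate 3 (edgeR adjusted p = 0.0714). It was also lost with DESeq2 (DESeq2 adjusted p = 0.0711), with limma at all 3 pseudocounts (limma adjusted p = 0.0952, 0.120 and 0.0941), without a filter (edgeR adjusted p = 0.0617) and with only the 2 groups compared (edgeR adjusted p = 0.0671). CXCL1, CXCL2 and CXCL3 share transcript sequence. Of their 50-base windows, 4.57%, 13.4% and 6.01% occurred in another gene of the trio, and at 100 bases the shares were 0% for CXCL1, 5.34% for CXCL2 and 3.27% for CXCL3, so their separate values are less certain than those of CXCL8, which shared none.

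CCL20, the CCR6 ligand that draws Th17 cells and immature dendritic cells, did not follow the other NF-kB-driven genes. Its level was 0.86, 1.17 and 1.02 FPKM in the control libraries, 1.02, 0.90 and 0.72 FPKM with siRNA.1, and 1.17, 1.21 and 0.78 FPKM with siRNA.2. All 3 groups overlapped. The log2 fold change was -0.23 ± 0.37 with siRNA.1 (95% confidence interval -0.95 to 0.49, edgeR adjusted p = 0.708) and 0.04 ± 0.35 with siRNA.2 (-0.66 to 0.73, edgeR adjusted p = 0.966). At 20 to 37 counts per library, changes within these intervals were not detectable.

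**Figure D2:**
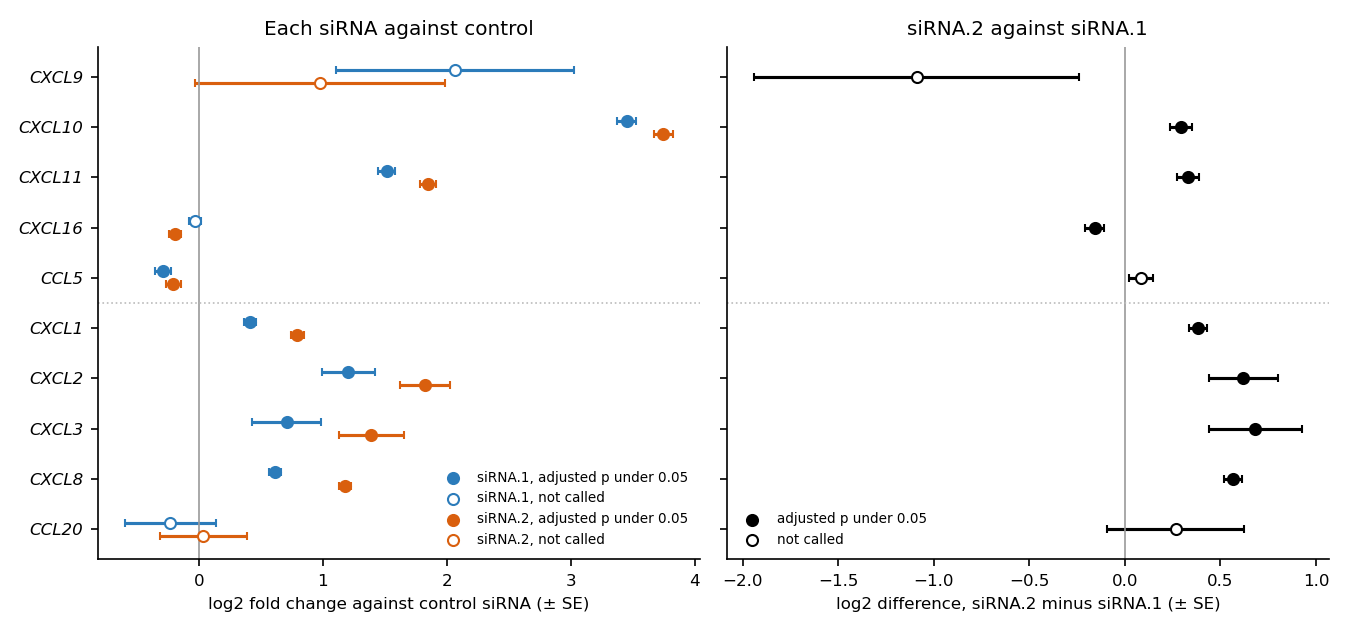
Log2 fold changes of each siRNA against control (left) and log2 differences of siRNA.2 minus siRNA.1 (right), with bars for ± SE from the edgeR fit and filled points for an adjusted p under 0.05. The dotted line parts the interferon-driven genes above from the NF-kB-driven genes below. CXCL10 stands farthest to the right at 3.45 and 3.75, and CXCL1, CXCL2, CXCL3 and CXCL8 lie to the right of 0 in both panels.

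The question of how far both siRNAs gave the same response was addressed by testing siRNA.2 against siRNA.1 directly, where 12.2% of all tested genes were called (6.1% higher and 6.06% lower with siRNA.2). Of the NF-kB-driven chemokines, 4 were higher with siRNA.2, and of the interferon-driven chemokines 2 were higher and 1 was lower. CXCL8 was 0.57 ± 0.05 higher on the log2 scale with siRNA.2 (edgeR adjusted p = 1.37e-31), and CXCL1 was 0.38 ± 0.05 higher (edgeR adjusted p = 2.96e-13). CXCL2 and CXCL3 were higher by 0.62 ± 0.18 (edgeR adjusted p = 0.00742) and 0.68 ± 0.24 (edgeR adjusted p = 0.0425). Set beside the step from control to siRNA.1, this second step was 0.38 after 0.41 for CXCL1, 0.57 after 0.61 for CXCL8, 0.68 after 0.71 for CXCL3 and 0.62 after 1.20 for CXCL2.

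For CXCL10 it was 0.30 ± 0.06 after 3.45 (edgeR adjusted p = 1.23e-05) and for CXCL11 0.33 ± 0.06 after 1.52 (edgeR adjusted p = 8.87e-07). The sizes of these steps were not tested against each other. The CXCL10 call was lost with DESeq2 (DESeq2 adjusted p = 0.216) and with limma on log2(FPKM + 0.1) (limma adjusted p = 0.417). The lower CXCL16 (-0.16 ± 0.05, edgeR adjusted p = 0.0136) was no longer called without siRNA.1 replicate 3 (edgeR adjusted p = 0.0577) or siRNA.2 replicate 3 (edgeR adjusted p = 0.128). The CXCL2 call was lost without siRNA.1 replicate 2 (0.48, edgeR adjusted p = 0.106) or siRNA.2 replicate 2 (0.42, edgeR adjusted p = 0.237), and with limma on log2(FPKM + 0.1) (limma adjusted p = 0.0885). The CXCL3 call was lost without siRNA.1 replicate 2 (0.46, edgeR adjusted p = 0.331), siRNA.1 replicate 3 (edgeR adjusted p = 0.106), siRNA.2 replicate 1 (edgeR adjusted p = 0.0725) or siRNA.2 replicate 3 (edgeR adjusted p = 0.272). It was also lost with DESeq2 (DESeq2 adjusted p = 0.0945), with limma at all 3 pseudocounts (limma adjusted p = 0.134, 0.118 and 0.142), without a filter (edgeR adjusted p = 0.0775), with filterByExpr (edgeR adjusted p = 0.0633) and with library totals only (edgeR adjusted p = 0.0551). CXCL9, CCL5 and CCL20 did not pass this test, with differences of -1.09 ± 0.85, 0.09 ± 0.06 and 0.27 ± 0.36.

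Since FPKM is scaled by gene length, levels can be set beside each other between genes. In the control cells the order was CXCL1 (89.8 ± 2.76 FPKM, SD, n = 3), CXCL16 (60.4 ± 1.62), CXCL8 (55.1 ± 5.68), CCL5 (51.9 ± 4.82), CXCL11 (17.1 ± 1.61) and CXCL10 (7.73 ± 1.94). The neighbours CXCL16 and CXCL8, and CXCL8 and CCL5, overlapped between libraries. CXCL2, CCL20, CXCL3 and CXCL9 followed at 1.66 ± 0.16, 1.02 ± 0.16, 0.760 ± 0.10 and 0.0433 ± 0.0404 FPKM, with CCL20 and CXCL3 overlapping. With siRNA.1 the order became CXCL1 (121.8), CXCL8 (85.7), CXCL10 (85.3), CXCL16 (60.2), CXCL11 (49.7) and CCL5 (43.2), with CXCL8 and CXCL10 overlapping. With siRNA.2 it was CXCL1 (156.9), CXCL8 (125.6), CXCL10 (103.6), CXCL11 (61.8), CXCL16 (53.3) and CCL5 (45.4), and none of these neighbours overlapped.

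The summed level of the 5 interferon-driven chemokines was 125.9 to 143.9 FPKM in the control libraries, 227.9 to 244.9 for siRNA.1 and 255.3 to 280.0 with siRNA.2. That of the 5 NF-kB-driven chemokines was 140.3 to 155.2, 207.8 to 219.7 and 285.0 to 298.8 FPKM. The interferon-driven share of the total was 45.7% to 50.3% in the control libraries, 51.7% to 53.9% for siRNA.1 and 46.3% to 49.1% with siRNA.2, so that it was higher than control in every siRNA.1 library and overlapped with control for siRNA.2. Its makeup differed more. CXCL10 took 2.02% to 3.12% of the summed level of all 10 genes in the control libraries, 18.1% to 19.8% for siRNA.1 and 17.0% to 19.9% with siRNA.2, whereas the share of CCL5 went from 16.9% to 19.1% in the control libraries to 9.05% to 9.97% for siRNA.1 and 7.67% to 8.67% with siRNA.2.

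The most responsive T cell chemokine was also set against the most abundant neutrophil chemokine within each library. The log2 ratio of CXCL10 to CXCL1 in FPKM was -3.57 ± 0.41 (SD, n = 3) in the control libraries, -0.52 ± 0.08 with siRNA.1 and -0.60 ± 0.16 with siRNA.2. CXCL10 thus stayed below CXCL1 in all 9 libraries, but the gap narrowed by 3.06 and 2.97 on the log2 scale. CXCL10 was chosen here for its response, so the ratio is a description with no test.

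Of the 10 genes, 7 lie in a pair of clusters on chromosome 4 (coordinates on GRCh38 as deposited). From CXCL8 (chr4:73740541-73743716) past CXCL1 (chr4:73869393-73871308) and CXCL3 (chr4:74036589-74038807) to CXCL2 (chr4:74097040-74099196), a stretch of 359 kb held 18 annotated genes, of which 5 were tested. The tested gene that was no member was CXCL5, another CXCR2 ligand, with 15, 7 and 13 counts in the control libraries, 18, 6 and 12 with siRNA.1, and 34, 27 and 48 with siRNA.2. CXCL5 was at -0.05 ± 0.49 on the log2 scale with siRNA.1 (edgeR adjusted p = 0.966) and rose by 1.27 ± 0.44 with siRNA.2 (edgeR adjusted p = 0.0164). The platelet chemokine genes PF4 and PF4V1 in the same stretch had 0 counts in all libraries, and CXCL6 had at most 2 in any. The nearest tested genes outside were RASSF6, at -0.60 ± 0.25 with siRNA.1 (edgeR adjusted p = 0.0239) and -0.29 ± 0.23 with siRNA.2 (edgeR adjusted p = 0.334), and MTHFD2L, at 0.21 ± 0.14 (edgeR adjusted p = 0.250) and 0.45 ± 0.13 (edgeR adjusted p = 0.00212).

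CXCL9 (chr4:76001275-76007509), CXCL10 (chr4:76021118-76023497) and CXCL11 (chr4:76033682-76041415) lie on the minus strand within 40.1 kb. ART3, on the opposite strand, spans CXCL10 and CXCL11, and was counted at most 7 times in any library, against 117 to 2726 counts for CXCL10. Whether reads were counted by strand is not given in the sources used here, so reads of both strands cannot be told apart in the overlap. Beside the cluster, SDAD1 was 0.29 ± 0.06 higher with siRNA.1 (edgeR adjusted p = 1.19e-05) and 0.38 ± 0.06 higher with siRNA.2 (edgeR adjusted p = 3.49e-09). NUP54 on the other side was at 0.07 ± 0.07 (edgeR adjusted p = 0.476) and 0.14 ± 0.06 (edgeR adjusted p = 0.102). Outside chromosome 4, CXCL16 (chr17:4733533-4739928) and CCL5 (chr17:35871491-35880793) lie far apart on chromosome 17, and CCL20 (chr2:227805739-227817564) lies on chromosome 2.

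**Figure D3:**
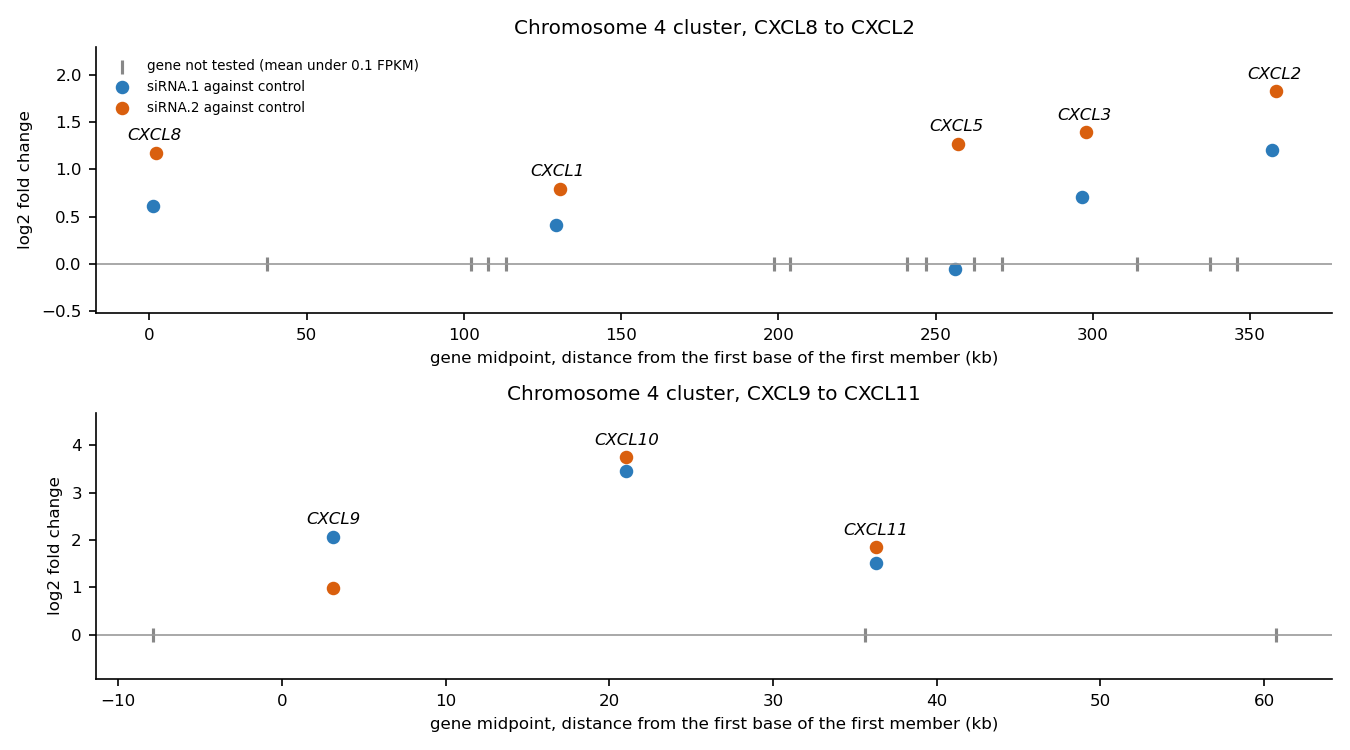
Log2 fold change of tested genes in the chromosome 4 stretches from CXCL8 to CXCL2 (above) and from CXCL9 to CXCL11 (below) against the distance of the gene's midpoint from the first base of the stretch, in kb. Blue points are siRNA.1 and orange points siRNA.2 against control, and grey ticks at 0 mark annotated genes that were not tested. All tested genes lie above 0 with siRNA.2, and CXCL5 lies at -0.05 with siRNA.1, while CXCL9 did not pass the test with either.

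Other chemokines were mostly silent in these cells. Of 33 other chemokine genes, 12 were tested, of which 4 rose and 1 fell with siRNA.1 (15% and 15.2% of all genes) and 5 rose and 0 fell with siRNA.2 (15.8% and 15.1% of all genes). CCL4, which draws monocytes and T cells, was counted 2, 0 and 0 times in the control libraries, 10, 21 and 20 times with siRNA.1, and 25, 27 and 15 times with siRNA.2. Since its control libraries held 2 counts in all, the ratio of summed counts per depth was wide, at 24.6 (exact 95% interval 6.47 to 209, for counting error only) for siRNA.1 and 26.6 (7.07 to 224) for siRNA.2, and it passed the filter of 0.1 FPKM only through its siRNA libraries (control mean 0.0233 FPKM), so its call is given as a count with no p. CCL3, which shares the receptor CCR1 with CCL5, rose from 0.617 to 3.39 and 2.84 FPKM, with log2 fold changes of 2.43 ± 0.28 (edgeR adjusted p = 8.06e-17) and 2.18 ± 0.28 (edgeR adjusted p = 1.02e-13). CCL24, an eosinophil chemokine, rose by 2.13 ± 0.64 (edgeR adjusted p = 0.00431) and 2.71 ± 0.61 (edgeR adjusted p = 7.16e-05). CCL22 rose with both siRNAs as well, and CCL2 was lower with siRNA.1 alone called, at -1.18 ± 0.43 (edgeR adjusted p = 0.0225) beside -0.07 ± 0.39 (edgeR adjusted p = 0.932) with siRNA.2.

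Receptors of these ligands were near or below detection, as is usual for epithelial cells. Of 22 receptor genes 8 were tested, of which 1 rose and 1 fell with siRNA.1 and 1 rose and 0 fell with siRNA.2, shares that are no higher than the 30.3% and 30.9% called over all genes. CCR1, a receptor of CCL5, was counted 5, 1 and 2 times in the control libraries, 16, 14 and 11 times with siRNA.1, and 22, 13 and 17 times with siRNA.2. Its control mean of 0.0600 FPKM lay below the filter, which it passed only through the siRNA libraries, so its call is given as a count with no p. CXCR2, the receptor of the neutrophil chemokines, was at 0.307, 0.293 and 0.180 FPKM in the control, siRNA.1 and siRNA.2 groups and did not pass the test, at -0.08 ± 0.50 and -0.79 ± 0.52. CXCR6, the receptor of CXCL16, was at 0.163, 0.237 and 0.277 FPKM and did not pass it either, at 0.52 ± 0.52 and 0.77 ± 0.51. CCR6, the receptor of CCL20, had 0 counts in all libraries.

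The interferon-driven chemokines were next set beside the genes that carry the interferon signal. Of 16 such regulators, 15 were tested, of which 4 rose and 3 fell with siRNA.1 and 3 rose and 3 fell with siRNA.2, beside 30.3% and 30.9% called over all genes. STAT2, a transcription factor of type I and type III interferon signaling, rose by 0.33 ± 0.05 and 0.22 ± 0.05, and IFNGR1, a chain of the interferon gamma receptor, by 0.16 ± 0.06 with each. IRF1, a factor that acts at the ISRE and is induced by interferon gamma, fell by 0.31 ± 0.06 and 0.24 ± 0.06.

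Of 12 other interferon targets, 12 rose with each siRNA (15% and 15.8% of all genes rose), with a median log2 fold change of 2.06 with siRNA.1 and 2.03 with siRNA.2. IFIT1, which binds viral RNA, rose by 3.19 ± 0.05 and 2.97 ± 0.05. OAS1, a sensor of double-stranded RNA, rose by 2.37 ± 0.05 and 2.16 ± 0.05, and IDO1, which degrades tryptophan, by 2.22 ± 0.25 and 2.39 ± 0.25. Over the 12 genes the smallest and largest values were 0.36 and 3.19 for siRNA.1, 0.62 and 2.97 for siRNA.2. CXCL10 lay above both ranges and CXCL11 within them, and CXCL16 and CCL5 lay below both. The list was chosen with earlier results of these data known, so these places are a description only. RSAD2, an interferon target outside the list, was at 3.66 and 3.42.

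On the NF-kB side, 16 regulators were tested, of which 4 rose and 5 fell with siRNA.1 and 3 rose and 5 fell with siRNA.2, beside 30.3% and 30.9% called over all genes. NFKB2, a subunit precursor, rose by 0.29 ± 0.05 with each siRNA, and NFKBIZ, an atypical nuclear member of the inhibitor family, rose by 0.47 ± 0.09 and 0.55 ± 0.09. NFKBIA, the classic inhibitor and itself an NF-kB target, fell by 0.49 ± 0.05 and 0.40 ± 0.05. NFKBIE, a related inhibitor, fell by 0.37 ± 0.10 and 0.49 ± 0.10, and MAP3K14, the kinase of the noncanonical pathway, by 0.65 ± 0.09 and 0.77 ± 0.09.

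Other NF-kB targets went in both directions. Of 14, 5 rose and 4 fell with siRNA.1 and 6 rose and 3 fell with siRNA.2 (30.3% and 30.9% of all genes were called), with a median log2 fold change of -0.06 and 0.08. IL6 rose by 1.32 ± 0.06 and 1.02 ± 0.06, LCN2, an iron-scavenging protein of epithelia and neutrophils, by 1.06 ± 0.12 and 0.96 ± 0.12, and IL1A by 0.24 ± 0.05 and 0.40 ± 0.05. TNFAIP2 fell by 0.98 ± 0.04 and 0.90 ± 0.04, and BIRC3, an inhibitor of apoptosis, by 0.48 ± 0.05 and 0.71 ± 0.05. TNF itself did not pass the test, at -0.45 ± 0.21 (edgeR adjusted p = 0.0957) and -0.20 ± 0.20 (edgeR adjusted p = 0.529). The 4 neutrophil chemokines that rose thus stood beside a list with genes called in both directions, and CCL20 did not pass the test. CXCL10 and CXCL11 stood beside a list in which every gene rose. Of the same set, CXCL16 and CCL5 did not rise and CXCL9 did not pass the test. What drove either set was not tested.

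**Figure D4:**
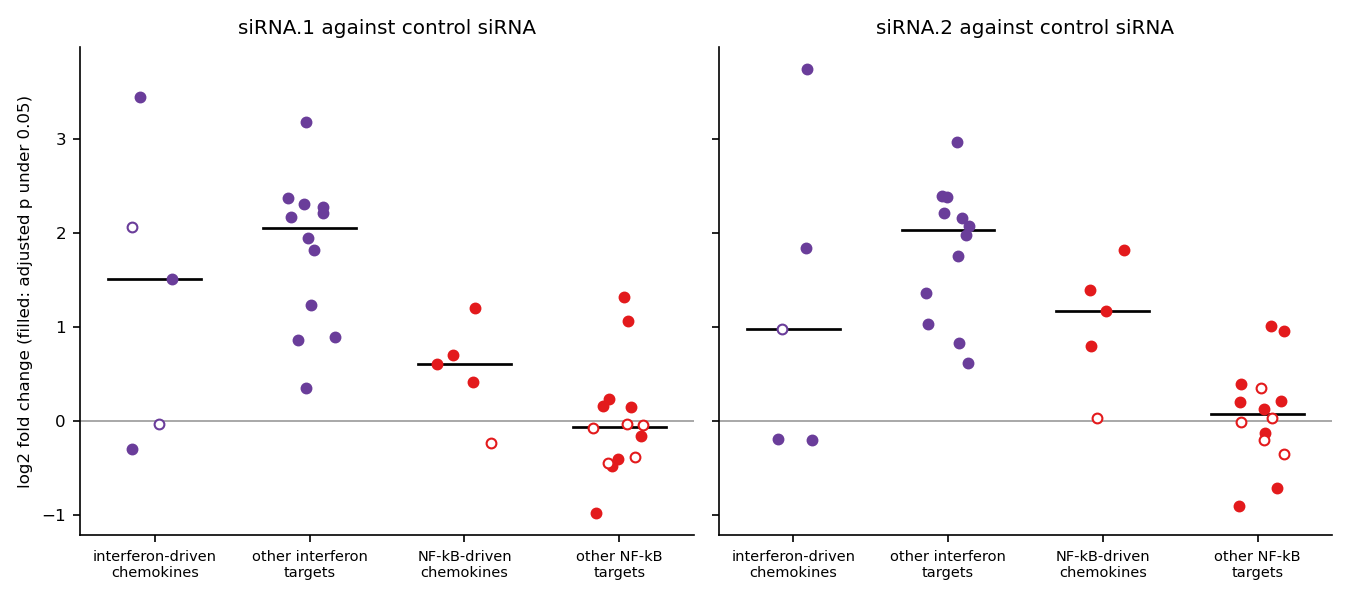
Log2 fold change against control siRNA of the interferon-driven chemokines, 12 other interferon targets, the NF-kB-driven chemokines and 14 other NF-kB targets, for siRNA.1 (left) and siRNA.2 (right). Points are genes, filled for an edgeR adjusted p under 0.05, and black lines are medians. All 12 interferon targets lie above 0 and the other NF-kB targets lie on both sides of it. Both lists were chosen with earlier results of these data known.

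The genes whose pattern over the 9 libraries was most like that of CXCL10 and of CXCL1 were found by the Euclidean distance of log2 counts scaled to library size, each taken from the gene's control mean, among 12524 genes whose mean reached 1 FPKM. For CXCL10 these were RSAD2 (distance 0.795), HLA-DRA (0.806), IFNL3 (1.22), VIM (1.36) and IFIT1 (1.56). RSAD2 and IFIT1 are antiviral interferon targets, HLA-DRA encodes a chain of an MHC class II molecule, IFNL3 encodes a type III interferon and VIM encodes vimentin. Their log2 fold changes were between 3.19 and 4.13 with siRNA.1 and between 2.97 and 4.08 with siRNA.2. HLA-DRA, IFNL3 and VIM had means of 2.76, 2.44 and 1.08 FPKM over the 9 libraries. With rises of this size they reached 1 FPKM only through their siRNA libraries, so their place in the list is no independent support. For CXCL1 the nearest genes were SLC29A1 (0.168), FKBP11 (0.207), HOXA9 (0.221), THBS1 (0.237) and ENC1 (0.243), none of them a chemokine. Their log2 fold changes were between 0.37 and 0.52 with siRNA.1 and between 0.70 and 0.76 with siRNA.2. The list of CXCL10 held no other of the 10 chemokines either.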

How the data were processed

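Poly(A)+ RNA of TE13 cells was sequenced. According to the study's methods, reads were aligned with STAR and counted per gene with featureCounts. Versions, annotation release and strand setting are not given in the sources used here. The authors deposited raw counts without normalization, and FPKM, which was recomputed from the counts, the deposited exonic length and the library totals to within 0.005. The build is GRCh38, and 93.8% of the 60463 genes found in GENCODE release 44 had the same start and end there.

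Counts were tested with edgeR 4.0.16 (R 4.3.3), quasi-likelihood F test, TMM scaling, in a single fit of the 3 groups over the 21395 genes whose mean reached 0.1 FPKM, adjusted over all of them by Benjamini-Hochberg at a threshold of 0.05. Values after ± are standard errors of log2 fold changes (the absolute value divided by the square root of F) unless SD is named. The 95% intervals take the standard error as normal. A group whose libraries each had 3 counts or fewer was called at the floor. Libraries of a group differed by more than sampling noise (chi-square per degree of freedom 2.76 to 4.62). Alternatives were DESeq2 1.42.0, limma 3.58.1 on log2(FPKM + 0.1, 1 or 0.01), other filters and scalings, only the groups compared, a replicate block, and each library left out. The script was tested on simulated data. Same-numbered libraries correlated between -0.12 and 0.049 in their deviations from group means.

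The members, gene lists and motifs were chosen with earlier results of these data known, and lists were written from recall. Named from each list were the genes needed for a statement and, in each direction, at most 3 with the largest mean change among those called with both siRNAs. Some genes of the lists are not reported here by name. Promoters are from RefSeq. The 3 comparisons were each siRNA against control and siRNA.2 against siRNA.1.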

Additional observations from a re-analysis of the deposited data

Results flagged for a closer look

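Values that differed between the siRNAs by a direct edgeR test are collected here, as log2 differences of siRNA.2 minus siRNA.1. Higher with siRNA.2 were CXCL3 (0.68), CXCL2 (0.62), CXCL8 (0.57), CXCL1 (0.38), CXCL11 (0.33) and CXCL10 (0.30), and CXCL16 was lower (-0.16). In each of these genes the FPKM values of the 3 siRNA.2 libraries lay wholly on that side of the 3 siRNA.1 libraries. Some of these calls depend on single libraries and some, that of CXCL10 among them, on the method, as given with each gene above.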

How the results depend on the processing

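CXCL10, CXCL11, CXCL1, CXCL2 and CXCL8 rose with each siRNA under every alternative run. CXCL3 rose with siRNA.2 under every alternative run. The calls of CXCL3 with siRNA.1 (0.71), and of CXCL3 (0.68) and CXCL2 (0.62) between the siRNAs, were lost under some alternatives. So were calls of smaller effects, namely those of CCL5 against control and of CXCL16 and CXCL10 between the siRNAs. With DESeq2, 1 interferon-driven and 3 NF-kB-driven chemokines were higher with siRNA.2 than with siRNA.1. With limma at any of the 3 pseudocounts, 0 interferon-driven chemokines were lower for siRNA.1 and 1 for siRNA.2, and between the siRNAs 1 interferon-driven and 2 NF-kB-driven chemokines were higher. limma called 1437, 1414 and 1449 genes between the siRNAs with pseudocounts of 0.1, 1 and 0.01, against 2603 with edgeR. With each library left out, the number of interferon-driven chemokines lower with siRNA.2 was 1 to 2 against control and 0 to 1 against siRNA.1, and that of NF-kB-driven chemokines higher with siRNA.2 than siRNA.1 was 2 to 4. Of values that never passed the test, CCL20 with siRNA.2 ran from -0.082 to 0.21 with a library left out (below 0 without control replicate 1, siRNA.2 replicate 1 or siRNA.2 replicate 2), and CXCL9 with siRNA.2 from -0.74 (without siRNA.2 replicate 2) to 1.94. The cause of these changes was not tested.

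The replicate numbers are shared by the groups, but same-numbered libraries did not deviate together. With the replicate number as a replicate block, 6215, 6359 and 2342 genes were called in the 3 comparisons, and the chemokine counts stayed at 2 higher and 1 lower, 2 higher and 2 lower, and 2 higher and 1 lower (interferon-driven) and 4 higher (NF-kB-driven) in each. Depth limits CXCL9, with 0 to 13 counts per library, and CCL20, with 20 to 37.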

Other observations

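Genes that act on chemokines after transcription or secretion are listed here. Of 12 genes of processing and turnover, 5 rose and 4 fell with siRNA.1 (15% and 15.2% of all genes) and 5 rose and 2 fell with siRNA.2 (15.8% and 15.1% of all genes). MMP9, a protease that can truncate CXCL8, rose from 9.62 to 13.2 and 23.2 FPKM, with log2 fold changes of 0.43 ± 0.09 and 1.26 ± 0.08. DPP4, which clips the amino terminus of CXCL10 and other chemokines, rose by 0.28 ± 0.09 and 0.64 ± 0.09, and ZC3H12C, a relative of the RNase that degrades inflammatory transcripts, by 0.34 ± 0.06 and 0.30 ± 0.06. ZFP36L2, which binds AU-rich elements, fell by 0.33 ± 0.05 and 0.14 ± 0.05. ADAM10, a sheddase of CXCL16, fell by 0.16 ± 0.04 with siRNA.1 and was at -0.02 ± 0.04 with siRNA.2.

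A receptor gene below the filter, chosen after its values were seen, differed between groups in counts. CXCR3, the receptor of CXCL9, CXCL10 and CXCL11, was counted 0, 8 and 10 times in the control libraries, 0, 1 and 0 times with siRNA.1, and 0, 1 and 0 times with siRNA.2. It was not tested.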
